A study of Mus musculus with 10 samples.

Results

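The milk protein genes are 7 mouse genes that encode the main secreted proteins of milk, namely the caseins Csn1s1, Csn1s2a, Csn1s2b, Csn2 and Csn3, the whey acidic protein Wap and α-lactalbumin, Lalba. They were chosen by name, and each was represented by its probe set with the highest mean among those that the platform annotation assigns to that gene alone. These genes had 13 of the 34958 such probe sets, and 6 of the 7 genes were among the 14087 genes that passed the filter on low signal. The samples were medullary thymic epithelial cells (mTECs) of C57BL/6 mice aged 3 weeks, sorted as negative for CD45, positive for EpCAM and high for CD80, from wild-type (WT) thymus on 5 arrays and from Fezf2 KO thymus on 5 arrays. The allele, the cells in which it was deleted and any pooling of animals are not given in the labels. Whether each array had its own animal is not stated either, and p-values therefore cover the variation among these 10 arrays alone, which could be technical. Each array keeps the number of its title: the WT arrays are WT 1, 2, 3, 4 and 5, and the KO arrays KO 6, 7, 8, 9 and 10.

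In the lactating mammary gland, caseins assemble into micelles that carry calcium and phosphate, with κ-casein (Csn3) at their surface, while whey acidic protein and α-lactalbumin stay in solution. The casein genes lie in a cluster on chromosome 5 that also holds other genes. In mammary epithelium the casein genes are switched on by prolactin, whose receptor activates the kinase Jak2 and the transcription factors Stat5a and Stat5b. Milk protein genes are also among the genes of other organs that mTECs express, which exposes developing T cells to these proteins. Fezf2, a zinc finger transcription factor, and Aire are regulators of such genes in mTECs, and the comparison asked which genes depend on Fezf2.

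The promoters of the members that differed between the genotypes are shown, together with that of Csn2, the gene next to Csn1s1. The sequences are the 250 bases before the annotated start, in the direction of transcription, taken from RefSeq on build GRCm38.p6. The RefSeq table used held 5 of the 7 members. Capitals mark matches to TTCNNNGAA, the core of the Stat5 binding motif, which reads the same on both strands.
Csn1s1 (chr5:87665958-87666207, plus strand): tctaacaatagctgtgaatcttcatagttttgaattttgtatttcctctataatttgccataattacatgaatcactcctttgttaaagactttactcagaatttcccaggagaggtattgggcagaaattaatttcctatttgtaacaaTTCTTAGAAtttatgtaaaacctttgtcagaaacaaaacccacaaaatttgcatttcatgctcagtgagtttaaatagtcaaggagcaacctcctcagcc
Csn2 (chr5:87699426-87699675, minus strand): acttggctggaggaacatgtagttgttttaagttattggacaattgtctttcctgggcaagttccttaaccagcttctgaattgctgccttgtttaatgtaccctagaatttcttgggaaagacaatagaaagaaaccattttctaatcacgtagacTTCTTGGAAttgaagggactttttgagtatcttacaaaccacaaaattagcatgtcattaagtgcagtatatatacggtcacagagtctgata
Csn1s2a (chr5:87774200-87774449, plus strand): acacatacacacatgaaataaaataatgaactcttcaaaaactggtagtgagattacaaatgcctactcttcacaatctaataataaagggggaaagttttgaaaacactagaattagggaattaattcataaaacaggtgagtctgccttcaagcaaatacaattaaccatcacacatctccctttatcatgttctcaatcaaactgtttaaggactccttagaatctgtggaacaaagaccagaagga
Wap (chr11:6638650-6638899, minus strand): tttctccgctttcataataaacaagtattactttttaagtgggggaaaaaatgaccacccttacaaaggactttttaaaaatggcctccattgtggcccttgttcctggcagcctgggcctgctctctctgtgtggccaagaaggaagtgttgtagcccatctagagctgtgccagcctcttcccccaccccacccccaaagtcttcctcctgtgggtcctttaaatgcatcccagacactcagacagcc
The match in Csn1s1 was TTCTTAGAA, beginning 100 bases before the start, and the match in Csn2 was TTCTTGGAA, beginning 93 bases before it. Csn1s2a had no match in the 250 bases shown but held TTCTTAGAA, the letters matched in Csn1s1, in the 50 bases after its start. Wap and Lalba had no match before or after the start. Of 32851 windows in the table, 7.02% held the motif in the 250 bases before the start and 8.30% in the full 300. A match describes the letters only, and binding was not measured here.

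Labels and arrays were checked first. Fezf2 signals lay between 5054 and 5895 on the WT arrays and between 12.1 and 18.3 on the KO arrays, below the 40th percentile of each array. The defining mTEC genes Epcam, Cd80, Aire, H2-Aa and H2-Ab1 were above that percentile on all 10 arrays. A list of 12 thymic epithelial markers also held Ly75 and Psmb11, which mark cortical rather than medullary cells. Of the 12, 4 were lower in KO (limma), against 16.2% of all genes tested. These were Ciita, Ly75, Aire and Krt14, with log2 changes of -0.81, -0.49, -0.45 and -0.42. Another 2, Tnfrsf11a and Krt5, were higher, with 0.76 and 0.71, against 13% of all genes. The summed signal of the 12, to which H2-Aa and H2-Ab1 contributed most, was 57830 to 66652 in WT and 59980 to 65598 in KO. WT 1 and KO 6 stood apart from the others in 18S rRNA signal, with 3445 and 3762 against 765 to 1774, and were highest in the polyA spike control, with 393 and 557 against 86.1 to 313. KO 6 had the lowest Aire signal, 4368. Xist was low on WT 2, KO 6 and KO 8, at 21.1 to 29.97, and high on the remaining 7, at 5304 to 6100. Without WT 1 and KO 6, and with the presence of Xist signal as a block, 3 members were lower and 0 higher, as with all arrays. In such bulk samples, fewer cells that express a gene and less RNA per cell cannot be told apart.

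In cells lacking Fezf2, 3 of the 6 milk protein genes tested were lower, Csn1s1, Csn1s2a and Wap, and none was higher (limma, adjusted p under 0.05). The other 3, Csn2, Csn3 and Csn1s2b, did not pass the threshold. At an unadjusted p under 0.05 the counts were also 3 lower and 0 higher. Over all 14087 genes tested, 16.2% were lower and 13% were higher. The median log2 change of the 6 members was -0.25, against -0.03 over all genes. The KO arrays lay entirely below the WT arrays for the same 3 members, a pattern found for 12% of all genes, while 10.1% of all genes had KO arrays entirely above WT. Log2 changes are of log2(signal + 16), which understates changes at low signal, and signals of different genes are not compared as levels because probe sets differ in how strongly they hybridise.

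**Figure D1:**
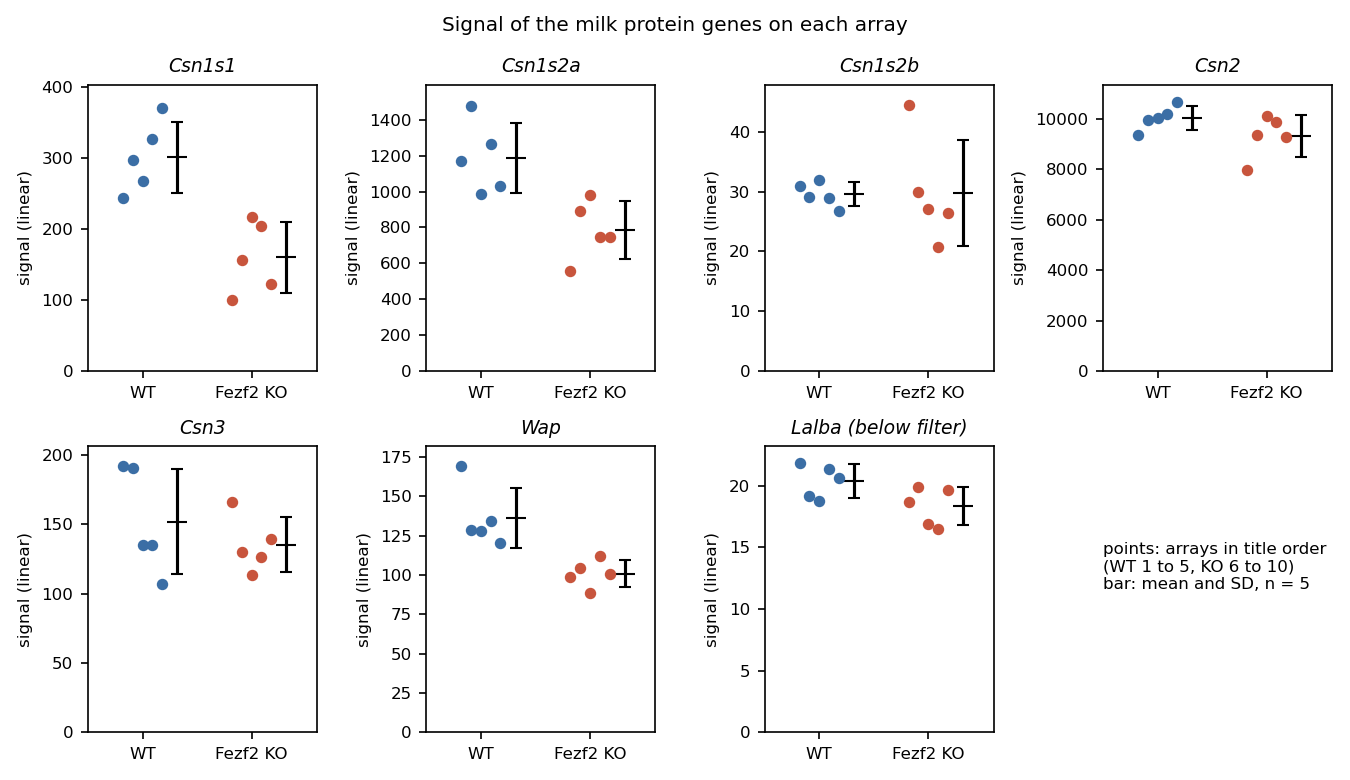
Linear signal (vertical axis, from 0) of each milk protein gene on the 5 WT and 5 Fezf2 KO arrays. Points are arrays in title order and bars are the mean and SD (n = 5). The groups do not overlap for Csn1s1, Csn1s2a and Wap and overlap for the other genes.

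Csn1s1, which encodes αs1-casein, fell most among the members. Its signals were 243.5, 296.9, 267.5, 326.2 and 370.9 on WT 1 to WT 5, and 99.9, 155.8, 217.2, 203.8 and 123.0 on KO 6 to KO 10. The highest KO array, KO 8, was below the lowest WT array, WT 1. Means were 301 ± 49.9 in WT and 160 ± 50.5 in KO (SD, n = 5 each), 1.85-fold lower on the log2(signal + 16) scale (log2 change -0.89, SE 0.18, 95% interval -1.28 to -0.49, limma adjusted p = 0.0032). An exact two-sided permutation test of this gene gave p = 0.00794, the smallest value that 5 against 5 arrays allow. The spread among KO arrays was wide for the size of the signal, with a coefficient of variation of 31.6% against 16.6% in WT. Over the fits that left out 1 array, the change stayed between -0.999 and -0.747 and passed in all 10.

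Csn1s2a, one of the mouse αs2-like caseins, also known as γ-casein, fell in step on both of its bright probe sets. The first gave 1171, 1475, 986, 1263 and 1033 on WT 1 to WT 5, and 556, 891, 978, 748 and 746 on KO 6 to KO 10. All KO arrays were below all WT arrays, with KO 8 and WT 3 close together at the boundary. Its means were 1185 ± 196 and 784 ± 161, 1.51-fold lower in KO (log2 change -0.60, SE 0.15, limma adjusted p = 0.0085, exact two-sided permutation p = 0.00794). The second probe set had means of 909 ± 113 and 596 ± 89.9 and a log2 change of -0.60, nearly that of the first. The gene's 3 other probe sets never rose above the 40th percentile of any array and had log2 changes of -0.04, -0.02 and -0.003.

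Wap, the main whey protein of rodent milk and a member of the WFDC family of small disulfide-rich proteins, had the smallest of the 3 falls and the narrowest spread. Its signals were 169.1, 128.6, 128.2, 134.0 and 120.5 on WT 1 to WT 5, and 98.4, 104.3, 88.7, 112.2 and 100.4 on KO 6 to KO 10. WT 1 was well above the other WT arrays, while the lowest WT array, WT 5, was still above the highest KO array, KO 9. Means were 136 ± 19.1 and 101 ± 8.59, 1.298-fold lower in KO (log2 change -0.38, SE 0.09, limma adjusted p = 0.0084, exact two-sided permutation p = 0.00794). Without WT 1 and KO 6 the change was -0.30, still past the threshold (limma, adjusted p = 0.0136). Wfdc18, another WFDC gene, known from the mammary gland, had means of 8882 ± 1958 and 7459 ± 864 with overlapping groups and did not pass (log2 change -0.23, limma adjusted p = 0.19).

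Csn2, which encodes β-casein, kept most of its signal in KO cells. It gave 9361, 9944, 10022, 10199 and 10694 on WT 1 to WT 5, and 7994, 9384, 10123, 9862 and 9285 on KO 6 to KO 10. KO 6 was the lowest array, and KO 7, KO 8 and KO 9 lay within the WT range. Means were 10044 ± 480 and 9330 ± 822, with a log2 change of -0.11 (95% interval -0.25 to 0.03, limma adjusted p = 0.22, exact two-sided permutation p = 0.119). Its second probe set gave -0.13 (exact two-sided permutation p = 0.222). The interval of the first probe set leaves out a fall of the size fitted for Csn1s1, the gene beside it. That is no test of the pair, and their direct comparison did not pass (exact two-sided permutation, adjusted p = 0.0794 over 15 pairs).

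Csn3 and Csn1s2b had values that overlapped widely. Csn3, the κ-casein that stabilises the micelle, gave 192.3, 190.6, 134.9, 135.3 and 106.8 on WT 1 to WT 5 and 166.3, 130.1, 113.6, 126.4 and 139.7 on KO 6 to KO 10. WT 1 and WT 2 were high, and every KO array lay inside the WT range (log2 change -0.13, 95% interval -0.45 to 0.19, limma adjusted p = 0.54). A second probe set of Csn3 lay between 6.96 and 8.92 on every array. Csn1s2b, the other αs2-like casein, gave 30.9, 29.1, 31.9, 29.0 and 26.7 in WT and 44.4, 29.9, 27.1, 20.7 and 26.4 in KO. These values are close to the 40th percentiles of the arrays, 21.5 to 22.1, and KO 9 was below its own. KO 6 was the highest of all 10 arrays, and the log2 change of -0.01 (95% interval -0.25 to 0.22, limma adjusted p = 0.95) changed sign under several alternatives.

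Lalba, which turns the galactosyltransferase B4galt1 into lactose synthase, did not pass the filter. Its signals were 18.7 to 21.8 in WT and 16.5 to 19.9 in KO, below the 40th percentile on all 10 arrays, so no fold is given. In the fit without a filter its log2 change was -0.08 (limma adjusted p = 0.20). B4galt1 itself had means of 339 ± 43.2 and 288 ± 18.5 and did not pass (log2 change -0.22, limma adjusted p = 0.071), although its KO arrays all lay below its WT arrays.

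**Figure D2:**
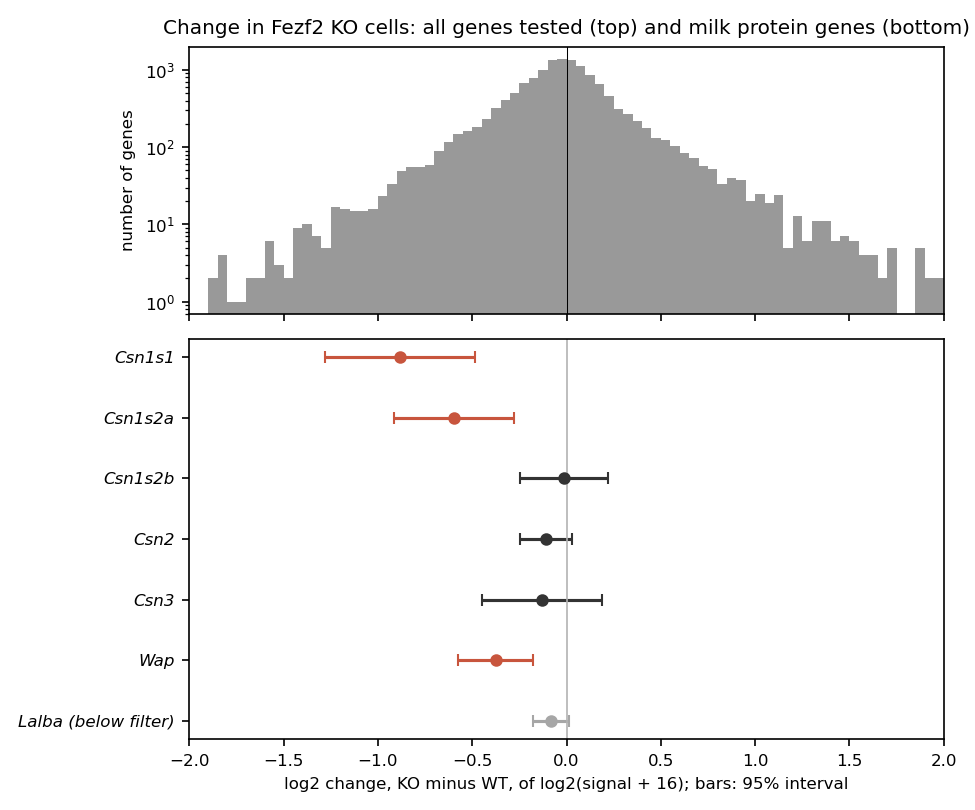
Top, number of genes (log axis) by log2 change, KO minus WT, for the genes tested, on an axis that leaves out genes with larger changes such as Fezf2. Bottom, the change of each milk protein gene with its 95% interval, red where past the threshold and pale where the gene was below the filter. The intervals of Csn1s1, Csn1s2a and Wap lie below 0.

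Whether members changed by different amounts was tested for all 15 pairs of the 6 genes, by the exact two-sided permutation test of the difference of their log2 values on each array. No pair passed after adjustment over the 15 pairs, while 6 pairs had an unadjusted p under 0.05. The smallest adjusted p, 0.0794, was shared by 3 pairs in this exact test. Csn1s1 fell by 0.78 more than Csn2 on the log2 scale (SE 0.16, unadjusted exact p = 0.00794), Csn1s2a by 0.49 more than Csn2, and Csn1s2a by 0.58 more than Csn1s2b. Without KO 9, 3 pairs passed in this exact test (adjusted p = 0.0397), namely Csn1s1 against Csn2, Csn1s1 against Csn1s2b and Wap against Csn1s2b. With 5 against 5 arrays, a pair on its own cannot reach an adjusted p below 0.119 over 15 pairs, and 3 pairs at the smallest exact p would have to occur together for those to pass. Csn1s1 against Csn2 was at that smallest p, so this test says little on whether the changes of the members differ.

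The order of the arrays within each genotype was similar for Csn1s1 and Csn2 and differed among the other caseins. Among KO arrays, Csn1s1 and Csn2 rose in the same order, KO 6, KO 10, KO 7, KO 9 and KO 8, and Csn3 ran in exactly the reverse order. Among WT arrays, WT 1 was lowest and WT 5 highest for both Csn1s1 and Csn2, whereas for Csn3 WT 5 was lowest and WT 1 highest. Csn1s2a had the order KO 6, KO 10, KO 9, KO 7 and KO 8 among KO arrays, but among WT arrays it was lowest on WT 3 and highest on WT 2. Csn1s2b, the gene next to it, ran from KO 9 over KO 10, KO 8 and KO 7 to KO 6, so that KO 6 was lowest for Csn1s2a and highest for Csn1s2b. The 18S rRNA and polyA spike signals were highest on WT 1 among WT arrays and on KO 6 among KO arrays, and their part in these orders was not tested. The span was widest for Csn1s1 among KO arrays, where the highest signal was 2.17 times the lowest. For Csn1s2b, whose signal was low, the span was nearly the same, 2.15 times. For Csn1s2a it was 1.76 times, for Csn3 1.46 and for Csn2 1.27. These orders are descriptions of 5 arrays per group, in which every gene shares the RNA and labelling of its array.

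**Figure D3:**
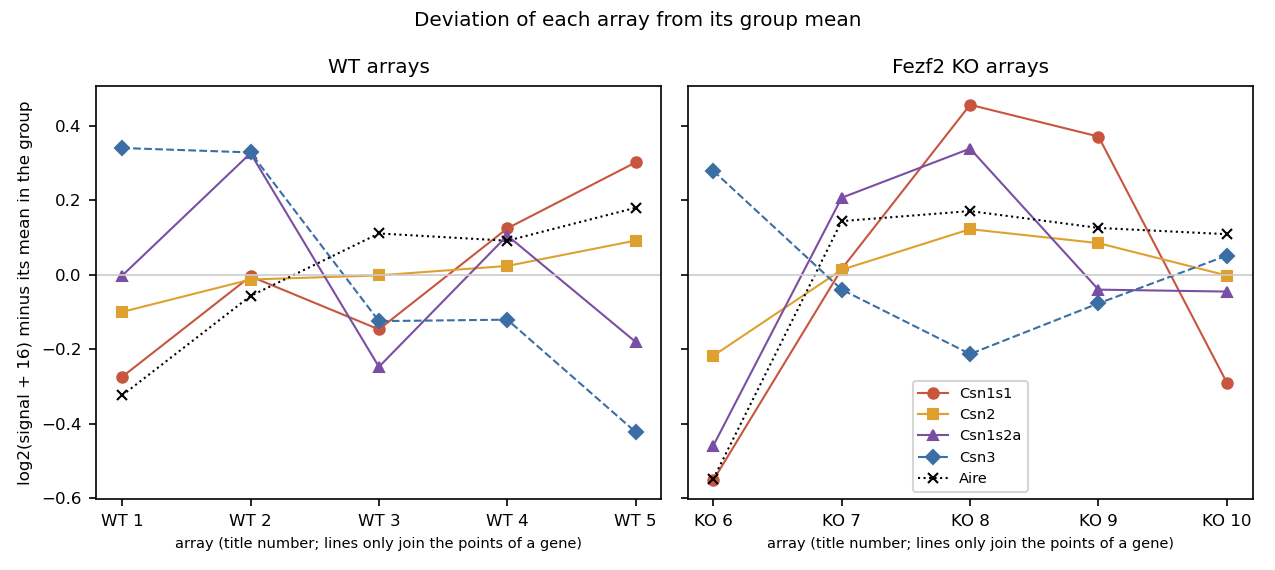
Deviation of log2(signal + 16) from the group mean on each WT array (left) and Fezf2 KO array (right) for Csn1s1, Csn2, Csn1s2a, Csn3 and Aire, with lines that only join the points of a gene. KO 6 is lowest for Csn1s1, Csn2, Csn1s2a and Aire and highest for Csn3.

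Aire shared some of these orders. Its signals were 6966, 8385, 9422, 9295 and 9885 on WT 1 to WT 5 and 4368, 7069, 7203, 6980 and 6899 on KO 6 to KO 10. WT 1 was the lowest WT array and KO 6 the lowest of all, and the KO order was that of Csn1s2a, although KO 7 to KO 10 differed little. Among WT arrays the order of Aire was not that of Csn1s2a. Aire was lower in KO (8791 ± 1156 against 6504 ± 1199, log2 change -0.45, limma adjusted p = 0.0282), so its signal and the genotype overlap as predictors. Without WT 3, WT 4 or WT 5 the change of Aire was -0.42, -0.42 or -0.40 and missed the threshold (limma, adjusted p = 0.0616, 0.0643 and 0.0683). With Aire as a covariate in the fit, chosen after seeing the data, Csn1s1 and Csn1s2a had log2 changes of -0.44 and -0.38 and no longer passed (limma, adjusted p = 0.0932 and 0.162). Over all genes tested, clearly fewer passed as lower in that fit than without Aire. The number that passed as higher fell only slightly, so the covariate removed mainly lower calls. The loss of lower calls was therefore not limited to these members, and a specific dependence on Aire was not tested. Wap still passed in that fit (log2 change -0.47, limma adjusted p = 0.0146), Csn3 passed with -0.49 (adjusted p = 0.0267), and Csn2 had 0.06 (adjusted p = 0.40).

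Some genes used as markers of other cell types differed between the genotypes, and whether such cells were in the sort was not tested. Over all genes tested, 16.2% were lower and 13% were higher. The summed signal of 11 leukocyte markers was 5627 to 6052 in WT and 3990 to 4989 in KO. Lyz2 contributed most of it, with 4110 to 4575 in WT and 2622 to 3420 in KO. Of 10 tested, the myeloid genes Lyz2, Csf1r and Adgre1 were lower, while Itgam, also a myeloid gene, and Ms4a1 were higher. Ptprc, Cd3e, Cd4, Cd8a and Rag1 did not pass. Of these markers Cd79a was at or below the 40th percentile on 9 of 10 arrays. Of 9 markers of fibroblasts and endothelium 4 were higher, Lum, Pecam1, Kdr and Cdh5. The summed signals of the 9 were 1354 to 1721 in WT and 1550 to 1810 in KO. Pecam1 was above the 40th percentile on 6 of 10 arrays, at 37.8 to 48.2 in KO but 15.8 to 20.9 on WT 2 to WT 5. It thus met the filter through its KO arrays, so its call is partly fixed by the filter. Of 10 luminal mammary markers tested, Kit was lower and Esr1 and Cited1 higher, which is 10% and 20% and near the shares over all genes. The summed signal of the 10, mostly Krt8 and Krt18, was 23798 to 26286 in WT and 25184 to 28970 in KO. The luminal keratins Krt8 and Krt18, which thymic epithelium also expresses, had log2 changes of -0.02 and 0.07 (limma, adjusted p = 0.76 and 0.38). The part of any such cells in the milk protein results was not tested either.

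Genes of the prolactin pathway had mixed changes, with 4 of 13 tested lower and 1 higher, against 16.2% and 13% over all genes. Their median log2 change was -0.04. Cish, a feedback inhibitor induced by Stat5, fell from 920 ± 71.2 to 655 ± 60.3 with no overlap (log2 change -0.48, limma adjusted p = 5.5e-04). Stat5a fell from 865 ± 115 to 615 ± 104 (log2 change -0.49, limma adjusted p = 0.0117). Its signals were 696, 794, 952, 935 and 947 on WT 1 to WT 5 and 448, 601, 629, 674 and 722 on KO 6 to KO 10, so that WT 1 was the one WT array below the highest KO array, KO 10. With Aire as a covariate its change was -0.12 and did not pass (limma, adjusted p = 0.33). Stat5b, its close relative, had a log2 change of -0.25 that did not pass (limma, adjusted p = 0.11). Under 3 alternatives Stat5b did pass, by the mean of its probe sets, with array weights and without WT 1. Its changes there were -0.24, -0.26 and -0.31 (limma, adjusted p = 0.031, 0.0122 and 0.0483). Cebpb, a transcription factor needed for mammary differentiation, fell by 0.58 and the growth hormone receptor gene Ghr by 0.33 on the log2 scale, and the feedback inhibitor gene Socs3 rose by 0.26. When 1 array at a time was left out, Cebpb missed the threshold in 6 of 10 fits and Ghr in 7, and the list had 2 lower genes without KO 7, KO 8, KO 9 or KO 10 and 2 higher genes without WT 1. Elf5, a transcription factor of alveolar cells, had means of 139 ± 19.9 and 163 ± 27.5 (log2 change 0.21, limma adjusted p = 0.23), and Jak2 had a change of -0.01. Prlr was not analysed here.

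Other genes of milk secretion changed in both directions, with 8 of 17 tested lower and 4 higher, against 16.2% and 13% over all genes. Their median log2 change was -0.23. The genes that fell with the smallest adjusted p were Muc1, a membrane mucin of the milk fat globule, from 891 ± 120 to 422 ± 44.8, and Plin2, the coat protein of lipid droplets, from 834 ± 90.9 to 490 ± 82.7. Olah, a thioesterase that ends fatty acid chains early in mammary gland, fell from 77.4 ± 18.03 to 34.9 ± 6.44, and Fabp3, a fatty acid carrier, from 376 ± 30.6 to 273 ± 21.0. Xdh, the scaffold enzyme of fat globule release, fell by 0.34 and lactoperoxidase, Lpo, by 0.37 on the log2 scale. The genes that rose were Ltf, the iron-binding lactoferrin, from 886 ± 304 to 2442 ± 896, Cd36, a fatty acid receptor, from 167 ± 79.9 to 450 ± 178, the mucin gene Muc15, from 213 ± 40.4 to 485 ± 77.8, and Mfge8, lactadherin, by 0.34 on the log2 scale. KO 6 had the highest Ltf signal, 4001 against 1830 to 2359 on the other KO arrays, and WT 1 the highest of the WT arrays, 1420. Each of these adjusted p-values was at most 0.0433 (limma), the highest being that of Xdh. Most of these genes are also expressed by epithelia and immune cells outside the mammary gland.

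**Figure D4:**
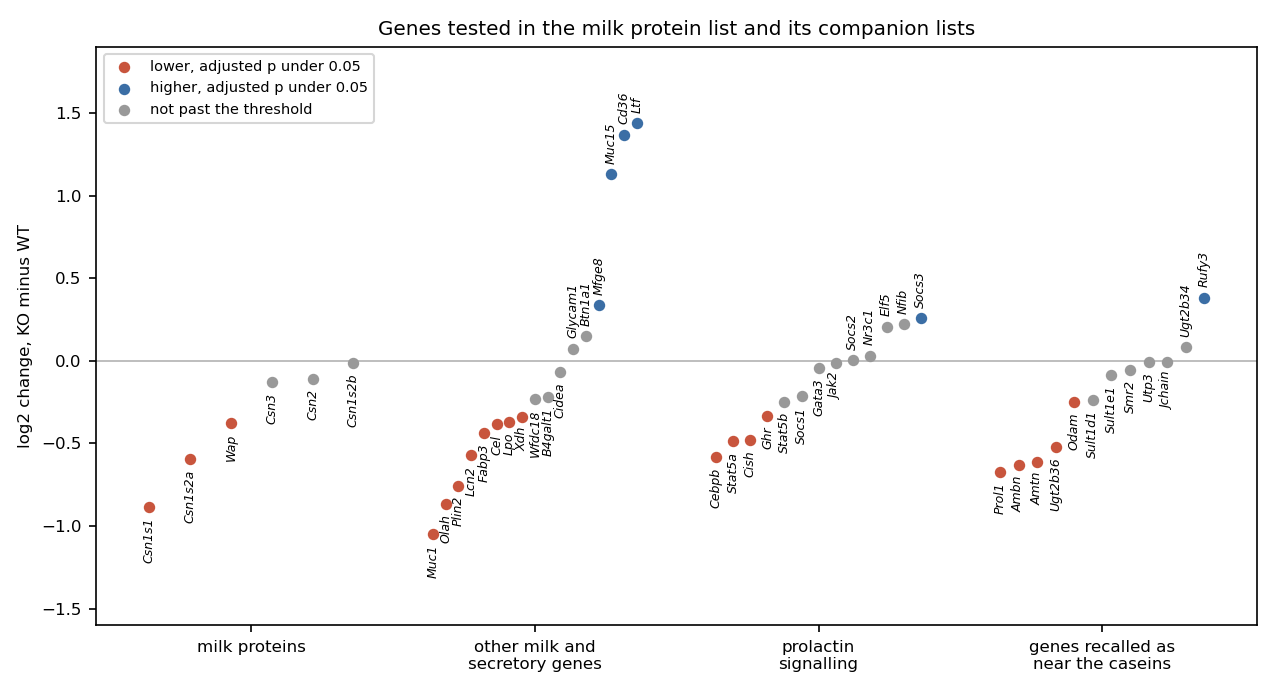
Log2 change, KO minus WT, of every tested gene of the milk protein list and of 3 companion lists, ordered within each list. Red genes were lower and blue genes higher past the threshold, and grey genes did not pass. In the milk protein list the genes past the threshold are all lower, while each companion list holds genes of both directions.

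The genome around the caseins was read in RefSeq gene order. The stretch from 10 genes before Csn1s1 to 10 genes after Csn3 held 27 genes that are not caseins, of which 6 were tested. Odam, an enamel protein gene between the caseins, fell from 30.7 ± 3.24 to 23.3 ± 1.69, near the 40th percentile, and Prol1, a proline-rich secreted protein, from 64.02 ± 29.2 to 32.3 ± 7.70 (log2 changes -0.25 and -0.67, limma adjusted p = 0.0082 and 0.0307). Prol1 missed the threshold in 5 of 10 fits when 1 array at a time was left out. Sult1b1, Sult1d1, Sult1e1 and Smr2 did not pass, with log2 changes of -0.15, -0.24, -0.09 and -0.05, and none of the 6 was higher, also at an unadjusted p under 0.05. In a wider list of 12 tested genes of the same chromosome, drawn up for lying near the caseins, 5 were lower and 1 higher. Over all genes, 16.2% were lower and 13% higher. The median log2 change of this list was -0.16. Odam, Prol1, Sult1d1, Sult1e1 and Smr2 are in both lists, so Odam and Prol1 are counted again among its lower genes. The tooth enamel genes Amtn and Ambn, which belong to the same gene family as the caseins, fell from 503 ± 80.4 to 324 ± 55.0 and from 44.0 ± 6.25 to 22.6 ± 3.60 (limma, adjusted p = 0.0035 and 1.8e-04). With the filter at the 60th percentile, which leaves Ambn, Ugt2b36, Odam and Prol1 untested, 1 gene of the wider list was lower, Amtn, and 0 of the RefSeq neighbours. Ugt2b36, a glucuronosyltransferase gene, fell by 0.52, Rufy3 rose by 0.38, and Utp3 had a log2 change of -0.01.

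**Figure D5:**
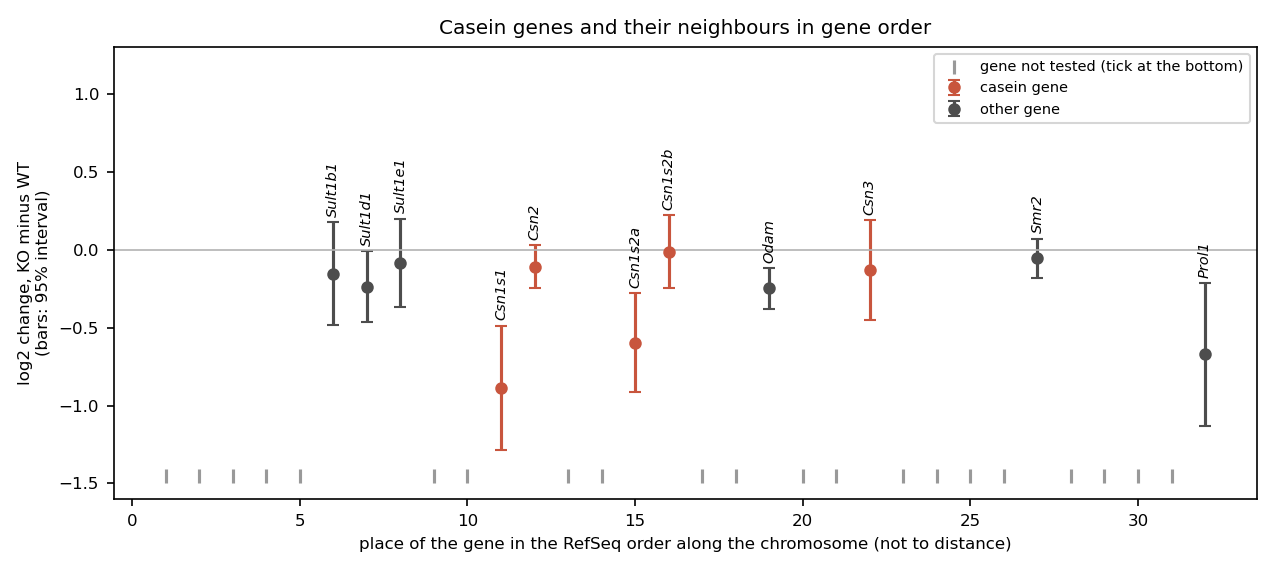
Log2 change, KO minus WT, with 95% intervals, for the casein genes (red) and tested neighbours (dark grey) by their place in the RefSeq gene order, with ticks at the bottom for genes not tested. Csn1s1 and Csn1s2a lie below Csn2 and Csn1s2b, the genes next to each of them.

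The genes with the closest profiles over the 10 arrays were found for each member that fell, by the mean absolute difference between log2 profiles that were each centred on their own mean. For Csn1s1 they were Cytl1, a small secreted protein, at 0.10, the collagen gene Col5a3 at 0.11 and the fibrinogen γ chain gene Fgg at 0.13, against a median of 0.45 over all genes. The nearest to Csn1s2a were Mycn, Cdhr4 and the water channel gene Aqp8, each at 0.11, against a median of 0.32. Wap had Lhfpl2 at 0.05, Thsd7a at 0.06 and Prkaa2, a catalytic subunit of AMP-activated kinase, at 0.06, against 0.21. No milk protein gene was among the 3 nearest of another. From Csn1s1, Csn1s2a stood at place 315 of all genes with a difference of 0.26.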

How the data were processed

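RNA of sorted mTECs was measured on Affymetrix arrays, 5 WT and 5 Fezf2 KO, grouped by their titles. The deposited table holds 1 linear intensity per probe set and array, and MAS5 is named in the submitters' processing notes. Its scaling is not given in the sources used here, and its medians lay between 36.5 and 38.0 on every array. Of 45101 probe sets, 34958 had 1 gene symbol in the platform annotation, 932 several and 9211 none, and those with 1 symbol covered 18194 genes. The deposited intensities were used without further normalization as log2(signal + 16). Probe sets above the 40th percentile of their own array on at least 5 arrays were kept, with the highest mean per gene. limma 3.58.1 in R 4.3.3 was fitted to 14087 genes, with a trended and robust eBayes step and Benjamini-Hochberg adjustment at 0.05. It was checked on simulated data. Single values and pairs of members were tested by exact two-sided permutation of the arrays.

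The members and lists were chosen with earlier results of these data known. By rule, the text names all members, up to 4 genes with the smallest adjusted p per list and direction, Prlr, Stat5a, Stat5b and Elf5, and the 3 nearest profiles. Lpo, Xdh, B4galt1, Wfdc18, Jak2, Utp3, the neighbours that did not pass and the markers were named after their values were seen. Alternatives were other offsets, normalizations, filters and probe set choices, eBayes without trend, array weights, leaving out each array, WT 1 with KO 6 left out, a block for Xist signal and, chosen after seeing the data, Aire as a covariate. The number of arrays limits the precision.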

Additional observations from a re-analysis of the deposited data

How the results depend on the processing

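No paired analysis was possible because the groups share no replicate numbers. The counts of 3 milk protein genes lower and 0 higher were the same under every alternative run, including all 10 fits that left out 1 array, with 2 exceptions for the lower genes. With only probe sets whose names carry no suffix, 0 were lower. By construction, all probe sets of Csn1s1, Csn2 and Wap were then left out. The bright probe sets of Csn1s2a were left out too, and its others did not pass the filter. With Aire as a covariate, 2 were lower, Wap and Csn3. Over all genes, the share that was lower in that fit was also below the 16.2% found without this covariate. The number of higher genes fell only slightly. The number of pairs of members that differed ranged from 0 to 3 when 1 array was left out, the 3 being without KO 9. The log2 change of Csn1s2b turned positive with quantile normalization (0.00723), without WT 3 (0.00598), without KO 8 (0.00288), without KO 9 (0.0614) and without KO 10 (0.00909), over a range from -0.119 to 0.0614 when 1 array was left out. With Aire as a covariate, Csn2 had a log2 change of 0.0594 and Stat5b of 0.0497. None of these reversed values passed the threshold, and the cause was not tested. Of 154 values of members over the alternatives, 145 kept their direction and their side of the threshold. Over all genes, leaving out 1 array gave 1824 to 2379 lower and 1507 to 1866 higher.

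Signals of Csn1s2b and Lalba near the 40th percentile limit what can be said of them, as do those of Odam and Ambn in KO. Prlr, Pthlh, Trf and Spp1 were not analysed here. Probe sets whose names end in _a_at or _s_at can detect several transcripts, of 1 gene or of related genes, which bears on the caseins. Arrays from 1 sort gate cannot tell apart a change in the share of cells from a change within cells.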
